A study of Arabidopsis thaliana with 6 samples.

Results

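Class III peroxidases are secreted plant haem enzymes, and 60 Arabidopsis genes that encode them were followed here. They were taken as a list of locus codes, and each was read by the probe set that the platform annotation assigns to that gene and to no other. Of the 60 genes, 45 had such a probe set and are called measured below, and none had more than 1. All 60 codes were found in the gene table, which gives a peroxidase name to 12 of them and lists most of the others by locus code alone. The 45 belong to 13286 genes measured in that way, and the test was run over all 22746 probe sets.

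Class III peroxidases use hydrogen peroxide to oxidise phenolic compounds, which links lignin, suberin and extensins in the cell wall, and they can also produce reactive oxygen species in the apoplast. In Arabidopsis a part of the oxidative burst that follows the sensing of microbial molecules is ascribed to the wall peroxidases PRXCA and PRXCB, beside the membrane NADPH oxidases. Many family members are expressed mainly in roots, where they take part in root hair growth and in the change from cell division to elongation.

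Whole Col-0 seedlings, an ecotype for which the labels name no mutation or transgene, were grown for 14 days under constant light in shaken liquid medium. Chitooctaose, a soluble chitin fragment of 8 sugar units that plants sense as a sign of fungi, was added to 1 µM in 20 µl, and control seedlings received 20 µl of water, each in 10 ml of medium. Seedlings were collected after 30 min by the titles and protocols, whereas the series text says 3 min. A description field calls the chitooctaose arrays water-treated, against their own titles and protocols, which were followed. There were 3 arrays per treatment, described as biological replicates. The tissue held shoots and roots, since the shoot gene LHCB4.1 read between 8346 and 9497 and the root hair expansin gene EXPA18 between 237 and 392 over the 6 arrays. In such whole seedlings, fewer cells of a type and less RNA per cell cannot be told apart.

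Setting chitooctaose against water addressed which peroxidase transcripts changed within 30 min of the chitin signal. Among the 45 measured genes, 4 rose, 41 did not pass and none fell. The rises were of AT5G39580 (5.87-fold), AT1G14550 (3.14-fold), AT3G03670 (2.20-fold) and AT5G64120 (1.40-fold). In the same limma fit 4.24% of all probe sets rose and 0.805% fell (Benjamini-Hochberg adjusted p under 0.05 over all 22746), against 8.89% and none of the measured peroxidases. Over the 13286 genes, each by 1 probe set of this fit, 3.75% rose and 0.565% fell. With 45 genes these shares rest on few calls, and no statement about the family as a whole is made from them. At an unadjusted p under 0.05, 8 measured peroxidases passed, where 14% of all probe sets did, and 1 of these, AT2G24800, was lower. Of the rises, 3 were at least 2-fold (6.67% of the members), as were those of 2.78% of all probe sets.

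AT5G39580 encodes a peroxidase known from root hair growth at low temperature. Its intensity, the brightness of the probe set on a linear scale, was 137, 119 and 116 in the water arrays and 640.4, 701 and 851 in the chitooctaose arrays. Every chitooctaose array lay above every water array by a wide margin, and the means were 124 ± 11.3 and 731 ± 109 (SD, n = 3). The log2 change was 2.55 (SE 0.13, 95% interval 2.23 to 2.87, limma adjusted p = 0.000157). AT5G39580 passed under all 16 alternative settings, with an adjusted p of at most 0.00698.

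AT5G64120 encodes a wall peroxidase that has been linked to lignin and to wall stiffening after wall damage. It read 1239, 1442 and 1245 in water and 1725, 1847 and 1918 in chitooctaose. This was a small rise on a bright probe set, with no overlap between the treatments. The means were 1309 ± 115 and 1829.8 ± 97.7 (SD, n = 3), with a log2 change of 0.49 (SE 0.08, 95% interval 0.29 to 0.68, limma adjusted p = 0.0231). The call ended after quantile normalization (adjusted p = 0.0837) and when water replicate 1 (0.104) or 3 (0.0978) or chitooctaose replicate 1 (0.0573), 2 (0.0953) or 3 (0.0960) was left out.

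AT5G64110 is its next protein-coding neighbour in the gene table and did not pass. It read 271, 396 and 327 in water and 386, 292 and 279 in chitooctaose, so the treatments overlapped throughout. The log2 change was -0.05 with a 95% interval from -0.51 to 0.41 (limma adjusted p = 0.951), beside 0.49 for AT5G64120. The difference between these neighbours was not tested.

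AT1G14550 adjoins PER4, a gene used as a marker of immune responses to microbial patterns, and PER4 itself is not analysed here. AT1G14550 read 27.6, 41.8 and 22.0 in water and 78.7, 103.7 and 96.5 in chitooctaose. All 6 values were dim, and the treatments did not overlap. Their means were 30.5 ± 10.2 and 93.0 ± 12.9 (SD, n = 3), with a log2 change of 1.65 (SE 0.27, 95% interval 0.99 to 2.31, limma adjusted p = 0.0239). With a floor of 64, above all of its water values, the change was 0.53 and the call ended (adjusted p = 0.0980). It also ended when water replicate 1 (0.109) or 3 (0.0655) or chitooctaose replicate 1 (0.0699), 2 (0.0989) or 3 (0.103) was left out.

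AT3G03670, a peroxidase gene listed by locus code alone, read 68.7, 78.3 and 70.0 in water and 189, 122 and 172 in chitooctaose. Chitooctaose replicate 2 stood lowest of its group, still above all water arrays. The means were 72.3 ± 5.23 and 161 ± 34.7 (SD, n = 3), with a log2 change of 1.13 (SE 0.19, 95% interval 0.66 to 1.60, limma adjusted p = 0.0277). The call ended when water replicate 1 (adjusted p = 0.120), 2 (0.0745) or 3 (0.113) or chitooctaose replicate 1 (0.104) or 3 (0.116) was left out.

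**Figure D1:**
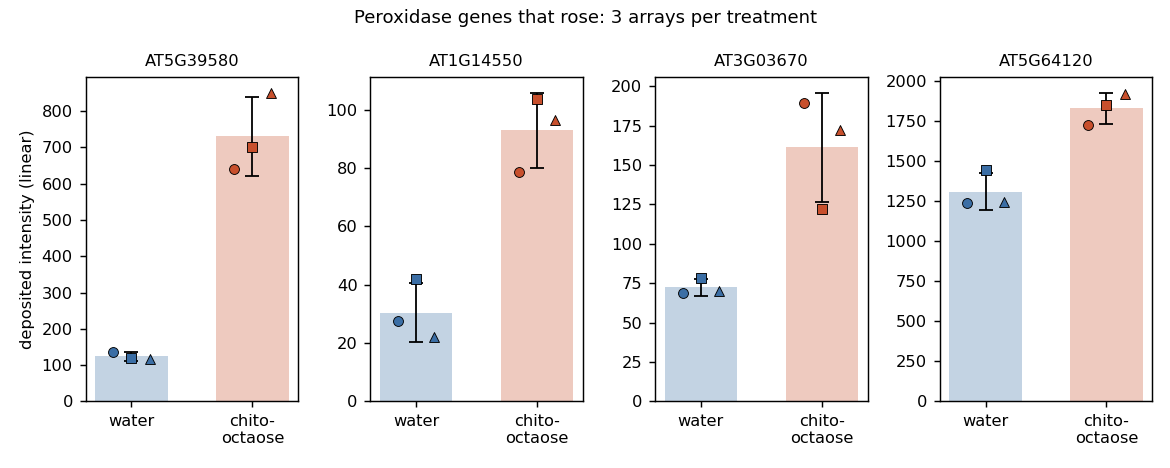
Deposited linear intensity (y axes, each from 0) of the 4 peroxidase genes that rose, in water (blue) and chitooctaose (orange). Bars are means, error bars are SD (n = 3), and circles, squares and triangles are replicates 1, 2 and 3; for each gene the lowest chitooctaose array lies above the highest water array, and AT5G39580 shows the widest separation.

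The number of peroxidase rises changed when single arrays were left out. It was 1, AT5G39580, without water replicate 1 or 3 or without chitooctaose replicate 1 or 3, it was 4 without water replicate 2, and it was 3 without chitooctaose replicate 2. The 4 without water replicate 2 held AT4G33420 in place of AT3G03670. The 3 without chitooctaose replicate 2 were AT5G39580, AT3G03670 and Prx37 (AT4G08770). Over all probe sets 964 rose with every array and 721 to 835 without 1 array, so calls were also lost outside these genes. AT5G39580 was also the only peroxidase to rise with the replicate number as a block, though the labels do not say that the numbers pair arrays.

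AT4G33420 came nearest to the threshold among the genes that did not pass. It encodes a peroxidase known from lignifying xylem vessels. It read 338, 386 and 313 in water and 454, 446 and 487 in chitooctaose, with no overlap. The log2 change was 0.42 (SE 0.09, 95% interval 0.20 to 0.65, limma adjusted p = 0.0733). The gene passed when water replicate 2 was left out (0.0285), when the dimmest 40% of probe sets were (0.0318) and with robust variances (0.0478).

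**Figure D2:**
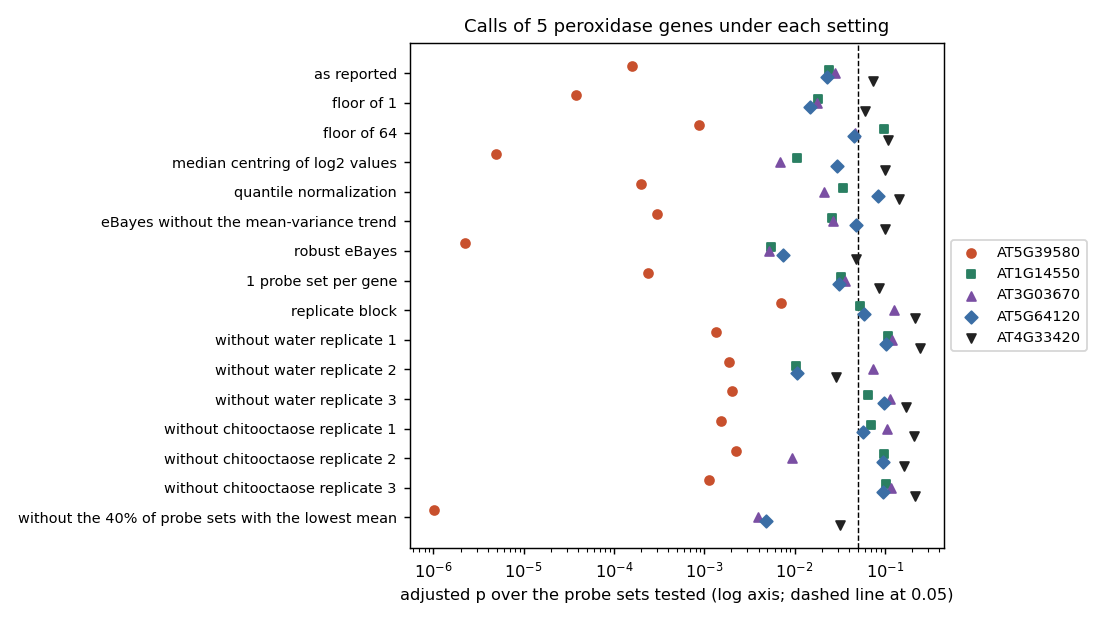
Adjusted p (x axis, log scale, dashed line at 0.05) of 5 peroxidase genes under the reported fit and each alternative setting (y axis). AT5G39580 lies left of the line in every row, while the others cross it when arrays are left out; AT1G14550 is among the dimmest 40% of probe sets and has no point in that row.

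Further genes stood higher in chitooctaose without passing. AT1G34510, listed here with the root genes, read 125, 89.5 and 133 in water and 247, 139 and 155 in chitooctaose. The separation rested on a small gap, and chitooctaose replicate 1 stood far above its group (log2 change 0.61, SE 0.27, limma adjusted p = 0.411). AT1G68850 read 51.7, 56.8 and 57.8 against 70.6, 70.7 and 84.8, without overlap (log2 change 0.44, SE 0.13, adjusted p = 0.190). AT3G21770 and AT4G36430 also had no overlap, with log2 changes of 0.18 (adjusted p = 0.319) and 0.21 (0.393). In all, 9 of the 45 (20%) had every chitooctaose array above every water array, where 8.96% of all probe sets did. The reverse, every chitooctaose array below every water array, held for 2 members (4.44%) and for 10.2% of all probe sets.

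These 2 members were AT2G24800 and AT3G49960, and neither passed. AT2G24800 read 96.2, 106 and 105 in water and 89.3, 68.3 and 83.3 in chitooctaose (log2 change -0.36, SE 0.14, limma adjusted p = 0.340). AT3G49960 read 439.9, 416 and 409 in water and 405, 358 and 311 in chitooctaose, a narrow separation (log2 change -0.24, SE 0.11, adjusted p = 0.397). The third of the larger falls among genes with a mean over 100 was AT2G39040, whose treatments overlapped (log2 change -0.21, SE 0.14, adjusted p = 0.629).

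For most of the measured genes that did not pass, the data bound the change in intensity to within 2-fold. The 41 genes that did not pass had log2 changes between -1.03 and 0.61, 17 of them above 0 and 24 below, and 32 lay within 0.25 of 0. The 95% interval of the change, not adjusted for the number of genes, stayed within a 2-fold change either way for 38 of the 41 and within a 1.5-fold change for 25. The exceptions to the first were AT1G34510, AT1G24110 and PRX52. How much of the intensity came from the transcript was not tested, and 16 of the 45 had a mean under 100. Listed genes that were not measured have no such bound. The median log2 change over the 45 was -0.02, and over all probe sets it was -0.04.

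**Figure D3:**
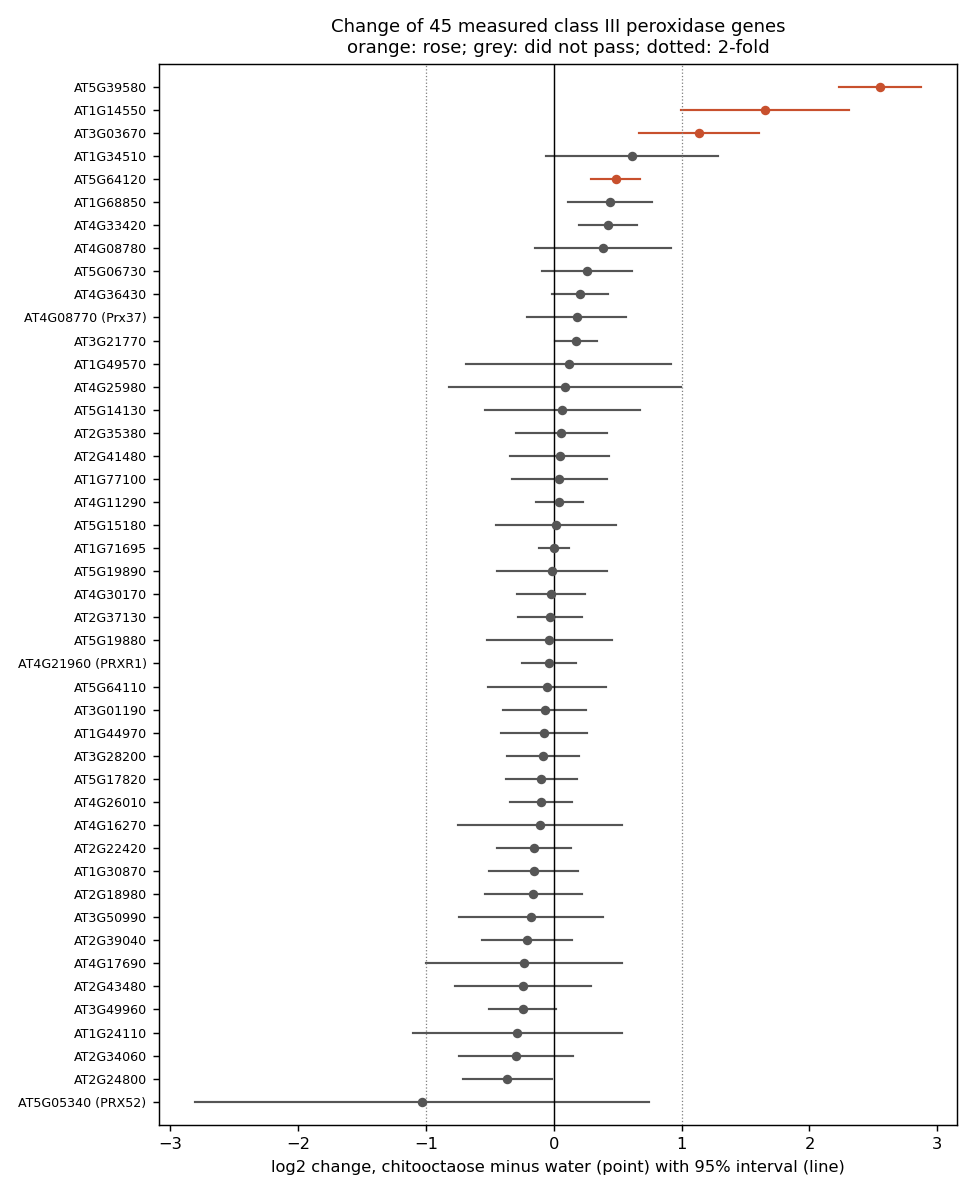
Log2 change from water to chitooctaose (x axis) of the 45 measured peroxidase genes (y axis, ordered by change), with 95% intervals as lines. The 4 genes that rose are orange; most others sit close to 0 with intervals inside the dotted lines that mark a 2-fold change, and PRX52 has the widest interval, from -2.80 to 0.74.

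**Figure D4:**
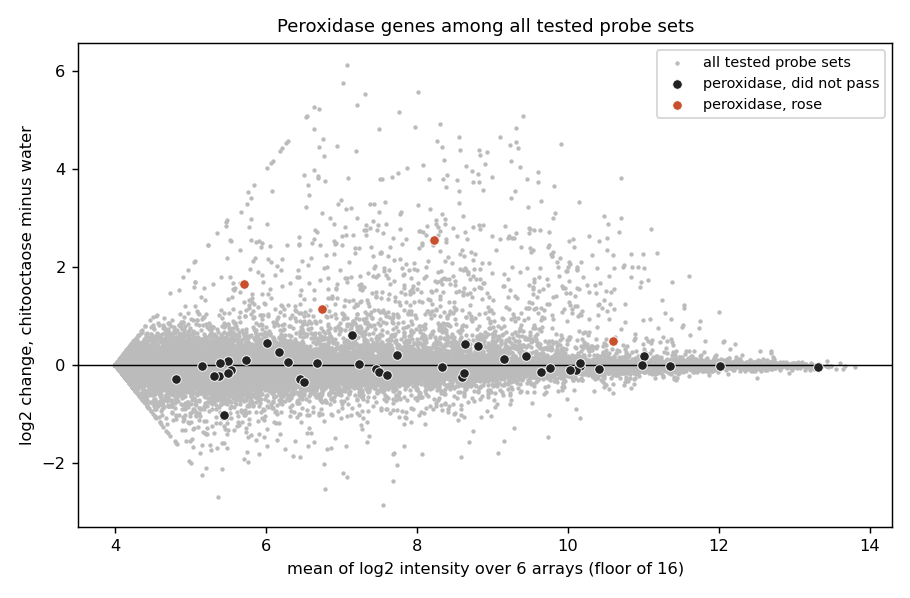
Log2 change (y axis) against mean log2 intensity over 6 arrays (x axis) for all 22746 tested probe sets (grey), with the measured peroxidases that did not pass in black and the 4 that rose in orange. Of the 11 peroxidases with a mean over 1000, AT5G64120 rose (log2 change 0.49) and the others did not pass.

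By role, the members known for the burst itself could not be followed. PRXCA and PRXCB had no probe set assigned to them alone and are not analysed here. Of the 5 close relatives listed, 2 were measured, the neighbouring genes Prx37 (AT4G08770) and AT4G08780, and neither passed. Prx37, whose overexpression restricts growth, read 1957, 1980.4 and 1884 in water and 2540.0, 1711 and 2435 in chitooctaose. AT4G08780 read 395, 434 and 346 in water and 650.1, 374 and 545 in chitooctaose. In both genes chitooctaose replicates 1 and 3 stood above all water arrays and replicate 2 did not. Their log2 changes were 0.18 (SE 0.16, limma adjusted p = 0.722) and 0.39 (SE 0.22, adjusted p = 0.532). Without chitooctaose replicate 2 the change of Prx37 was 0.36 and passed (adjusted p = 0.0248), the only 1 of 16 alternative settings in which it did.

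The 7 members listed under lignin and the Casparian strip were all measured. AT5G64120 rose, and 6 did not pass, where 4.24% of all probe sets rose. The genes were placed with earlier results of these data known, so the count is no evidence about the group. AT4G33420, known from lignifying xylem vessels, was placed with the remaining members, and AT1G44970, known from anthers, was placed here. The count therefore depends on the placement. PRX52, known from lignin of interfascicular fibres, read 97.2, 23.3 and 105 in water and 48.1, 36.4 and -15.2 in chitooctaose. The arrays of each treatment differed widely, and the last value was deposited as below 0 and was set to the floor of 16 for the test. Its fitted log2 change of -1.03 had an SE of 0.72 (limma adjusted p = 0.643), its 95% interval held changes either way, and the change was -2.36 with a floor of 1 and -0.44 with a floor of 64. AT1G71695 had the smallest SE of the group, 0.05, and read 1971, 1979 and 2088 in water and 2084, 2038 and 1930.5 in chitooctaose, and its 95% interval ran from -0.11 to 0.12. AT2G41480, linked to lignin content, AT2G22420, of lignified tissue, and AT1G44970, an extensin peroxidase of anthers, had log2 changes of 0.05, -0.16 and -0.08.

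Of the 13 members listed under responses to pathogens, wounds and stress, 8 were measured. AT5G39580 and AT1G14550 rose, and 6 did not pass. Over all probe sets 4.24% rose. The genes were placed in this group with earlier results of these data known, so the count is no evidence about the group. The median log2 change of the 8 was 0.05, and apart from the rises the changes ran from -0.05 (AT5G64110) to 0.26 (AT5G06730). AT1G49570 varied widely within each treatment, with 624, 679 and 381 in water and 806, 410.1 and 622 in chitooctaose. The neighbours AT5G19880 and AT5G19890 had changes of -0.03 and -0.02. AT2G37130 read 4364, 4329.8 and 3874 in water and 4567, 4168 and 3599 in chitooctaose (change -0.03).

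Of the 11 members listed as root and root hair genes, 9 were measured and none passed. Over all probe sets 4.24% rose and 0.805% fell. AT5G39580, which rose, is also known from root hairs but was listed under responses to pathogens, wounds and stress. The count of root genes that passed depends on that placement. The median log2 change of the 9 was -0.07. AT4G26010, needed with related genes for root hair growth, read 1129, 1095 and 1012 in water and 1155, 948 and 929 in chitooctaose. Water and chitooctaose overlapped (log2 change -0.10, 95% interval -0.34 to 0.14, limma adjusted p = 0.754). AT4G11290 and AT5G17820 are known targets of UPBEAT1, a transcription factor that sets the balance of reactive oxygen species in the root tip. AT4G11290 had a change of 0.04 (95% interval -0.14 to 0.23) and AT5G17820 one of -0.10 (-0.37 to 0.18). AT1G30870, AT3G01190, AT5G15180 and AT4G25980 had changes of -0.16, -0.07, 0.02 and 0.09.

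The root hair marker genes, which are no peroxidases, had 2 measured members of 7. EXPA18 read 327, 392 and 278 in water and 335, 311 and 237 in chitooctaose, and EXPA7 read 162, 122 and 125 against 138, 80.9 and 101. Their sum ran from 404 to 514 in water and from 338 to 473 in chitooctaose, and neither passed (log2 changes -0.18 and -0.38). Chitooctaose replicate 3, where EXPA18 was lowest, was also the lowest array of its treatment for 6 of the 9 root and root hair peroxidases. That array was the lowest for 21 of all 45 measured peroxidases (46.7%) and for 29.0% of all probe sets. These 2 shares were 57.8% and 39.0% after the log2 values of each array were centred on their median, a setting chosen after seeing the data. EXPA7 was lowest in chitooctaose replicate 2 instead. The part of root material in these values was not tested.

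The 5 members listed with seeds and other organs were all measured, and none passed, where 4.24% of all probe sets rose and 0.805% fell. These members read between 9.72 and 109 on single arrays and had changes from -0.30 to -0.11. Among them AT3G50990, of the seed coat, had a change of -0.18, and AT4G16270, which acts beside AT1G44970 in anthers and is also a UPBEAT1 target, one of -0.11. AT2G34060 had the largest change of the group, -0.30 (SE 0.18, limma adjusted p = 0.577), from 86.3, 95.7 and 109 to 82.5, 91.8 and 64.3. AT1G24110 had chitooctaose replicate 2 below the floor, at 9.72.

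The remaining 17 members had 14 measured genes. AT3G03670 rose and 13 did not pass, where 4.24% of all probe sets rose. The brightest probe set of all members was that of PRXR1, at 11098, 9396 and 10461 in water and 10860.0, 9619.9 and 9640.4 in chitooctaose (log2 change -0.04, 95% interval -0.25 to 0.17). AT4G30170 read 2674, 2921 and 2313 against 2841, 2529 and 2406, a change of -0.02. AT3G28200 (-0.09), AT2G18980 (-0.16), AT2G35380 (0.06), AT1G77100 (0.04), AT5G14130 (0.07) and AT2G43480 (-0.24) also overlapped between treatments. Among all measured peroxidases, 1 of 11 with a mean intensity over 1000 passed and 1 of 16 with a mean under 100. The shares of all probe sets that passed at these intensities were not computed, so nothing is read from the 2 counts.

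Within a treatment, the arrays ranked differently for these members than for all probe sets. Chitooctaose replicate 1 was the highest of its 3 arrays for 26 of the 45 peroxidases (57.8%), while it was the highest for 33.9% of all probe sets. In water, replicate 2 was the highest for 21 of 45 (46.7%), against 27.5% of all probe sets. After the log2 values of each array were centred on their median, a setting chosen after seeing the data, the shares were 53.3% and 24.4% for chitooctaose replicate 1 and 62.2% and 43.5% for water replicate 2. Genes are not independent, so these shares are a description of 6 arrays. The median SD within treatments was 0.19 on the log2 scale for the peroxidases and 0.17 for all probe sets.

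**Figure D5:**
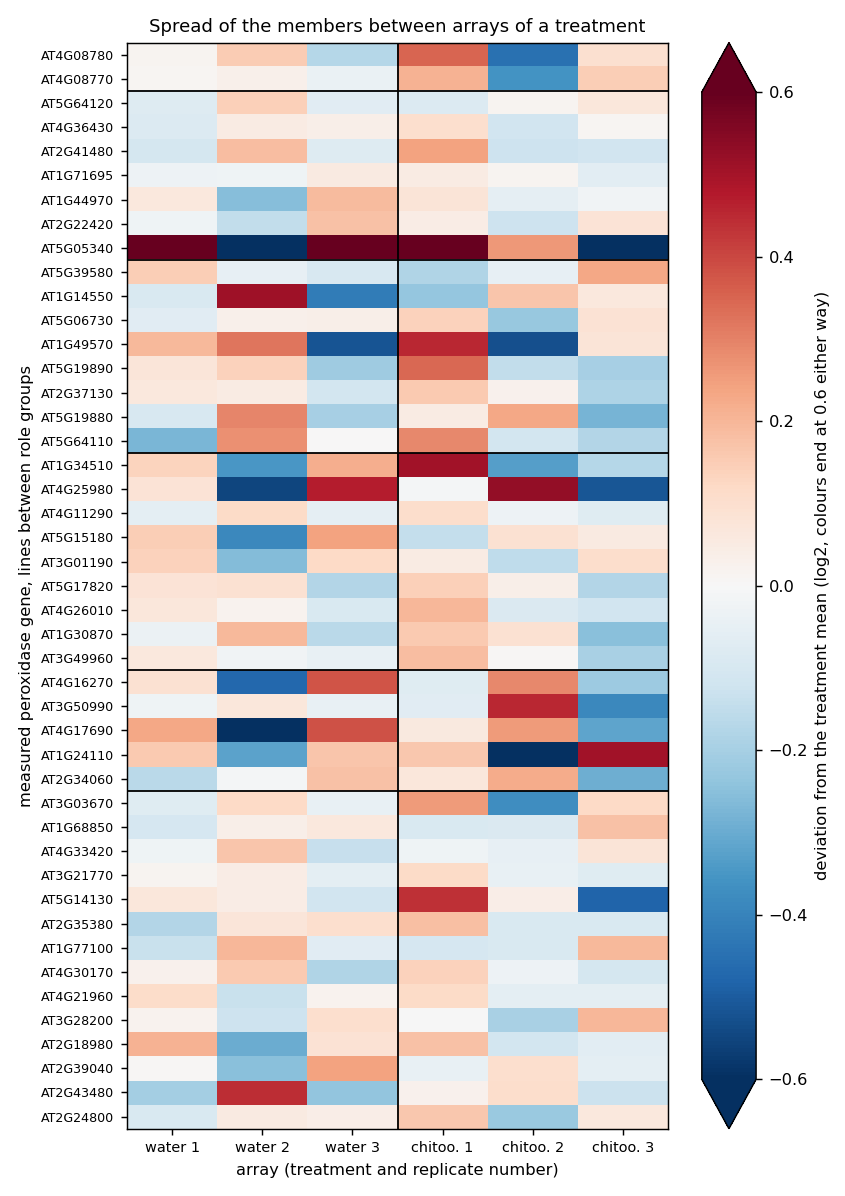
Deviation of each measured peroxidase gene (y axis, lines between role groups) from its treatment mean on each of the 6 arrays (x axis), in log2 units, red above and blue below the mean. Chitooctaose replicate 1 is mostly red and is the highest of its treatment for 26 of 45 genes, and PRX52 shows the strongest colours.

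Other genes of the same chemistry were followed from lists. Of 10 NADPH oxidase genes, whose products supply superoxide to the apoplast, 3 were measured and none passed. Their log2 changes were -0.0019 (RBOHE), -0.09 (RBOHG) and 0.05 (RBOHI). All 3 were dim, with mean intensities of 37.2, 56.4 and 53.6, where the median over all probe sets was 166.9. The other listed oxidases have no value here, so the response of the NADPH oxidases of the burst was not followed. Of 19 genes of monolignol synthesis, which makes the phenolic substrates that class III peroxidases link into lignin, 2 were measured. CCR2, a reductase gene, rose from 36.7, 36.3 and 31.0 to 123, 97.6 and 117 (log2 change 1.70, limma adjusted p = 0.00159), and HCT did not pass (-0.17). CCR2 was dim in water, and with a floor of 64, above all of its water values, its change was 0.81 and passed (adjusted p = 0.0149). The laccase gene LAC16, 1 of 17 listed, read 37.6, 60.8 and 28.5 against 14.5, 33.3 and 25.2 and did not pass (adjusted p = 0.479). Of 18 genes for ascorbate peroxidases, catalases and superoxide dismutases, the chloroplast enzymes SAPX (-0.02) and TAPX (-0.05) were measured and did not pass. At an unadjusted p under 0.05, CCR2 alone passed in these lists, which held few measured genes, where 14% of all probe sets did. None of 7 Casparian strip genes was measured. The 3 measured shoot genes of 9 had summed intensities of 15077 to 15781 in water and 14259 to 15702 in chitooctaose, and none passed.

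Of the 15 peroxidase genes that were not measured, 7 lie on 4 probe sets that the annotation shares between genes, and none of the 4 passed. Their log2 changes were between -0.16 and 0.44, and they are not assigned to a gene. The other 8 are not analysed here.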

How the data were processed

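The authors made biotin-labelled cRNA from 7 µg of total RNA for Affymetrix arrays, per the labels' protocols. Each array was deposited as intensities, linear and 1 for each probe set. Not given in the sources used here are the summary algorithm, the background step and the scaling. Array medians lay between 155.7 and 169.2, and 163 to 213 values per array lay below 0. Precision is limited by 3 arrays per treatment.

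After leaving out 64 control probe sets, values under 16 (3.81 to 4.91% per array) were raised to that floor, log2 was taken, and chitooctaose was compared with water by limma 3.58.1 (lmFit, eBayes with trend) in R 4.3.3, 2-sided, with Benjamini-Hochberg adjustment over 22746 probe sets. All adjusted p-values and SE come from this fit. Names came from the platform annotation and the RefSeq gene table (TAIR10.1): 13513 probe sets had exactly 1 gene, 13436 of them in the table. The fit was tested on simulated data.

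The members, role groups and lists were chosen with earlier results of these data known. Named in full by rule were the genes that passed, the 3 largest changes each way among other members with a mean over 100 in a treatment, the 3 brightest, the largest change per role group, measured neighbours of genes that passed, and from each list the called genes or the brightest. Other members are named to account for the family, after their values were seen. Replicate numbers were not used in the model, since the labels do not say that they pair the arrays. Sequence comparisons that had been planned were not made. Alternatives were other floors, scalings, variance models, probe set filters, a replicate block, a stricter threshold and leaving out each array.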

Additional observations from a re-analysis of the deposited data

How the results depend on the processing

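Under other floors, scalings, variance models and probe set filters 3 to 5 peroxidases rose and none fell. Under these settings 857 to 1060 of all probe sets rose and 158 to 265 fell, apart from the test of 1 probe set for each gene. Leaving out 1 array at a time, 1 to 4 peroxidases rose. Over all probe sets 721 to 835 then rose against 964, and 86 to 176 fell against 183. With the replicate number as a block 1 peroxidase rose, and over all probe sets 754 rose and 93 fell. The calls of AT1G14550 (limma adjusted p = 0.0537), AT3G03670 (0.126) and AT5G64120 (0.0586) then ended. Deviations of same-numbered arrays from their treatment means had correlations of 0.05, 0.03 and -0.10, and for 1 array of 6 the closest array of the other treatment bore the same number. At an adjusted p under 0.01, 1 peroxidase rose, and over all probe sets 692 rose and 62 fell. Testing 1 probe set for each gene, which are fewer, gave 475 rises and 63 falls. Without the dimmest 40% of probe sets 0 pathway genes rose, since CCR2 is among them. No called gene changed sign, while log2 changes near 0 did so when arrays were left out: from -0.11 to 0.061 for AT2G37130, -0.065 to 0.022 for SAPX, -0.10 to 0.016 for PRXR1, -0.24 to 0.090 for RBOHG, -0.11 to 0.056 for AT4G30170, -0.093 to 0.00024 for LHCB4.1 and -0.20 to 0.086 for AT5G64110. With a floor of 64 RBOHG had 0.0048. The sizes for AT1G14550, PRX52, CCR2 and LAC16 moved with the floor. The causes were not tested.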
